A study of Mus musculus with 16 samples.

Results

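The genes described here are 8 genes that build cholesterol or govern its synthesis: *Hmgcs1*, *Idi1*, *Fdps*, *Fdft1*, *Sqle*, *Cyp51*, *Srebf2* and *Insig1*. They were chosen by name as genes of this pathway. They are 8 of the 31053 genes in the count table of the lung and mesenteric lymph node (MLN) libraries, and all 8 are also among the 32285 genes in the table of the libraries from mediastinal lymph node (medLN) and MLN. All 8 passed the filter on low counts in each of the 12 comparisons below. None of the 8 takes up cholesterol from outside the cell, and uptake genes are given with the wider pathway.

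All cells were sorted CD4+ cells of 4get/C57BL/6 mice, in which the *Il4* locus carries an eGFP reporter (IL-4eGFP), so that cells which have opened *Il4* can be sorted as T helper 2 (Th2) cells without restimulation. Every mouse had received 500 third-stage larvae of Nippostrongylus brasiliensis (Nb), a nematode that passes through the lung before it settles in the small intestine, had antibiotics in its drinking water for the first 5 days, and was taken on day 10. No uninfected mice were measured. In the first run IL-4eGFP+ cells came from the perfused lung and the MLN of 2 female mice of 13 weeks, which gave 2 lung and 2 MLN libraries. In the second run the medLN, which drains the lung, and the MLN of 2 other 4get mice of 10 weeks were tagged with hashtag antibodies and pooled. IL-4eGFP+ and IL-4eGFP- cells of these nodes were each sequenced as 1 library, so that gate and library cannot be told apart. Lungs were digested with enzymes and passed over percoll and lymph nodes were only mashed, so that organ and handling cannot be told apart between lung and MLN. The perfused lung still held some cells from the blood vessels, and the IL-4eGFP+ gate can hold natural killer T cells.

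Cholesterol is made from acetyl-CoA. *Hmgcs1* makes HMG-CoA, from which mevalonate is formed, *Idi1* interconverts the isoprene units made from mevalonate, and *Fdps* joins these into farnesyl diphosphate, from which protein prenyl groups also arise. *Fdft1* couples farnesyl diphosphate into squalene, *Sqle* oxidizes squalene and *Cyp51* removes a methyl group from lanosterol. *Srebf2* encodes SREBP2, the transcription factor that drives these genes when membrane sterols are low, and *Insig1* encodes an endoplasmic reticulum protein that holds SREBP2 back when sterols are plentiful and is itself a target of SREBP2. Lymphocytes that grow and divide need sterols for new membranes, and the pathway is known to be induced in activated T cells.

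On GRCm38, the build of the deposited counts, *Hmgcs1* (ENSMUSG00000093930) spans chr13:119690379-119708260 on the plus strand and *Idi1* (ENSMUSG00000058258) spans chr13:8885501-8892451, also on the plus strand. *Fdps* (ENSMUSG00000059743) lies at chr3:89093588-89101959 and *Fdft1* (ENSMUSG00000021273) at chr14:63145150-63179578, both on the minus strand. *Sqle* (ENSMUSG00000022351) lies at chr15:59315077-59331192 and *Srebf2* (ENSMUSG00000022463) at chr15:82147181-82205379, both on the plus strand. *Cyp51* (ENSMUSG00000001467) spans chr5:4081145-4104746 on the minus strand and *Insig1* (ENSMUSG00000045294) spans chr5:28071363-28078662 on the plus strand.

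Since SREBP2 is known to act on the promoters of these genes, those of 4 of them are shown. The RefSeq table (GRCm38.p6) held a promoter for 5 of the 8 genes, namely *Hmgcs1*, *Idi1*, *Cyp51*, *Srebf2* and *Insig1*. Each line is written 5′ to 3′ on the strand of the gene and covers the part of the 250 bases before the RefSeq start that lies outside annotated transcripts. For *Idi1* this part has 145 bases, holds none of the motifs marked below and is not printed. Capitals mark the letters of 3 motifs found on either strand: the sterol regulatory element (TCACCCCAC or TCACNCCA), CCAAT (or ATTGG), and GGGCGG (or CCGCCC).
Hmgcs1 promoter, chr13:119690101-119690350, plus strand: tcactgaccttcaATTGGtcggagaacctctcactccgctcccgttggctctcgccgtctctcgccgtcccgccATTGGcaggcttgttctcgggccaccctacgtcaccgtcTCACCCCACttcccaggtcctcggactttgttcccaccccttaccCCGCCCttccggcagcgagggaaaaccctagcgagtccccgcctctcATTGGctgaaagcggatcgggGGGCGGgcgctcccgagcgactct
Srebf2 promoter, chr15:82147019-82147180, plus strand: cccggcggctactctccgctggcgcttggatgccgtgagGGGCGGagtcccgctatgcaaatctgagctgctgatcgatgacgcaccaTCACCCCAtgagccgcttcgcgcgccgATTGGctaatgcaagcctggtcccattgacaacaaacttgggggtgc
Insig1 promoter, chr5:28071162-28071362, plus strand: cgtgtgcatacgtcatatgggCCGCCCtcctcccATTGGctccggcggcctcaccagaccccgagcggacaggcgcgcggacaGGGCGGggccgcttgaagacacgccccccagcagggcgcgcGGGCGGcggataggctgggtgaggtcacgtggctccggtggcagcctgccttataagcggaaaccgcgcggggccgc
Cyp51 promoter, chr5:4104747-4104947, minus strand: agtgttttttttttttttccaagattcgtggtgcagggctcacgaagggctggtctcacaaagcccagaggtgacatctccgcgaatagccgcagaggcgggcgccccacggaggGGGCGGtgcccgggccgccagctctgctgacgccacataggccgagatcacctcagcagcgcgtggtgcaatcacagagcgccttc
Over the full 250 bases, the element TCACCCCAC stood in the *Hmgcs1* promoter, 137 to 129 bases before the start, and in none of the other 4, while 0.496% of the 32851 promoters of the table held it. The shorter form TCACNCCA, which overlaps the longer one in *Hmgcs1*, was also found in *Srebf2*, 162 to 155 bases before the start, and in 3.67% of all promoters. All 5 promoters held CCAAT and all 5 held GGGCGG, against 33.8% and 32.7% of all promoters. The windows of *Insig1*, *Idi1* and *Cyp51* did not hold either form of the sterol element with these letters. These matches describe letters only.

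The cells used numbered 1082 and 416 for lung 1 and 2 and 2462 and 754 for MLN 1 and 2, with 2798232 to 14512767 UMIs per library. Each hashtag sample of the nodes had 1992 to 2249 cells and 7546083 to 10636927 UMIs. The 8 genes gave 569 (*Sqle*) to 2465 (*Srebf2*) UMIs over the lung and MLN libraries and 1102 (*Sqle*) to 5078 (*Fdps*) over the nodes. They are thinly sampled per cell, since 23.6% and 26.4% of lung cells, 36.1% and 39.9% of MLN cells and 44.1% to 58.3% of the cells of the hashtag samples had no UMI of any of them. All comparisons therefore use UMIs summed over the cells of a library or hashtag sample, given as CPM, counts scaled to a common library total, after TMM normalization (normalized CPM). In such sums, fewer cells of a type and less RNA per cell cannot be told apart. The T cell gene *Cd3e* was at 977 to 1219 normalized CPM in the lung and MLN libraries. *Il4* was at 143.5 to 174.7 normalized CPM in the IL-4eGFP+ samples and had 2, 3, 0 and 0 UMIs in the IL-4eGFP- samples. Of the lung and MLN barcodes, 13 occurred in more than 1 library, and 113 node barcodes occurred in both gates.

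The first question was how Th2 cells of the lung differ from those of the MLN in their sterol genes. Lung Th2 cells had higher levels of 5 of the 8 genes, the enzymes *Idi1*, *Sqle* and *Cyp51* and the regulators *Insig1* and *Srebf2*, and of none lower levels. Among all 10590 genes tested, 17.0% were higher and 14.0% lower in lung. The median log2 fold change of the 8 genes was 0.57, against -0.01 over all genes. *Insig1*, whose protein holds SREBP2 back, showed the largest difference of the 8.

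*Insig1* was at 46.6 and 34.2 normalized CPM in lung 1 and 2 and at 13.98 and 16.3 in MLN 1 and 2. Its log2 fold change was 1.48 ± 0.18 (SE), with an adjusted p of 0.00025 (edgeR quasi-likelihood test, n = 2 libraries per organ). Both lung libraries lay far above both MLN libraries. The share of cells with an *Insig1* UMI was 23.6% (95% interval 21.1 to 26.2, exact Clopper-Pearson) and 17.3% (13.8 to 21.3) in lung and 7.07% (6.09 to 8.15) and 7.69% (5.89 to 9.83) in MLN, intervals that cover counting error only. The lung cells had more UMIs per cell, with a median of 6910 and 5765.5 against 4980 and 4971. The part of sequencing depth and of RNA content in this was not tested. After every cell was thinned to 1500 UMIs, these shares were 5.49% and 5.58% in lung and 1.72% and 2.53% in MLN, so that the order of the organs was kept at equal depth.

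*Srebf2*, which encodes the factor itself, was at 100.3 and 97.3 normalized CPM in lung and at 74.0 and 66.3 in MLN, a log2 fold change of 0.49 ± 0.11 (adjusted p = 0.00986). The groups did not overlap, but without MLN 2 the log2 fold change was 0.41 and the adjusted p 0.128.

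Of the 6 enzymes, *Idi1* had the largest difference, with 28.7 and 27.1 normalized CPM in lung and 14.2 and 13.9 in MLN (log2 fold change 0.99 ± 0.15, adjusted p = 0.00107). *Sqle*, often taken as a rate-limiting step of the later pathway, was at 25.4 and 30.6 in lung and at 14.6 and 14.8 in MLN (0.91 ± 0.16, adjusted p = 0.0026). *Cyp51* was at 46.4 and 47.0 in lung and at 30.75 and 28.2 in MLN (0.65 ± 0.13, adjusted p = 0.00417). In all 3 enzymes the lung and MLN libraries did not overlap, as was also so for *Hmgcs1* and *Fdps*, which did not pass. How many of all genes did so was not counted.

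The other 3 enzymes did not pass the test. *Hmgcs1* was at 35.05 and 45.6 normalized CPM in lung and at 29.75 and 31.7 in MLN, a log2 fold change of 0.37 with a 95% interval of 0.02 to 0.71 (adjusted p = 0.0996). The same mice gave both organs, and with the mouse as a block *Hmgcs1* passed (log2 fold change 0.36, adjusted p = 0.0485), so that 6 of the 8 genes were then higher. Its value rested on single libraries, since without lung 1 it passed (0.58, adjusted p = 0.0184), whereas without lung 2 it was at 0.20 (adjusted p = 0.307) and without MLN 1 or MLN 2 the adjusted p was 0.357 or 0.193. *Fdps* was at 59.8 and 69.5 in lung and at 58.6 and 54.1 in MLN, with an interval of the log2 fold change from -0.10 to 0.46 (adjusted p = 0.313). For *Fdft1* the organs overlapped, with 33.5 and 43.1 in lung and 34.7 and 26.5 in MLN and an interval from -0.13 to 0.65 (adjusted p = 0.288).

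**Figure D1:**
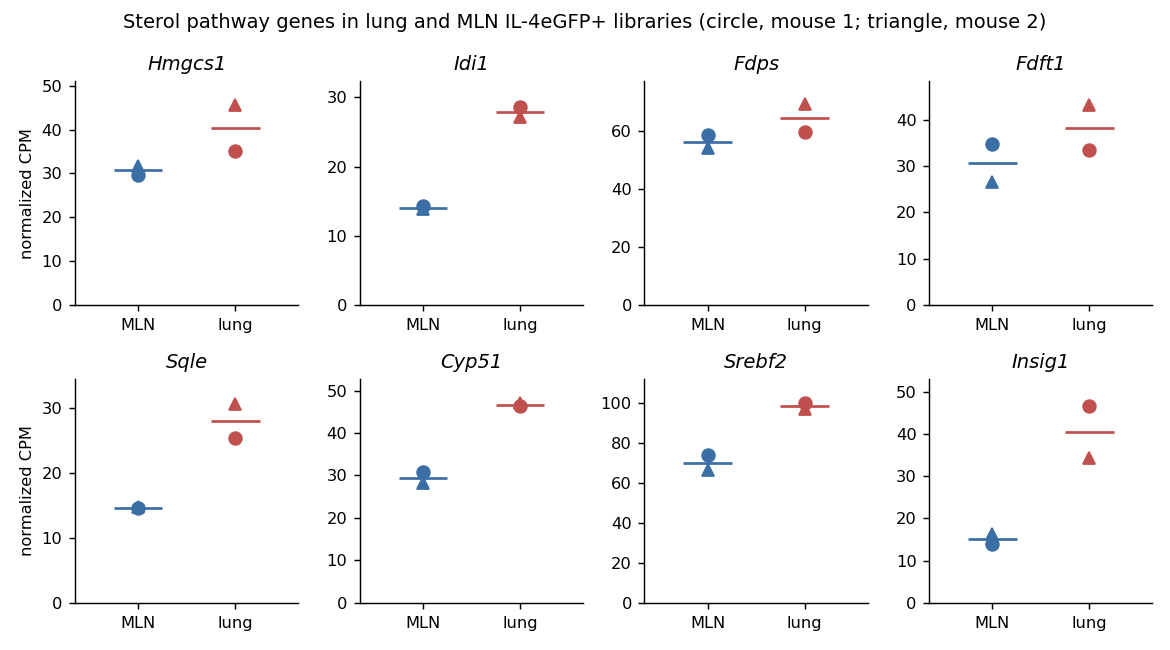
Level of each of the 8 genes in normalized CPM (y axes start at 0 and differ between panels) in the MLN and lung libraries. Circles are mouse 1, triangles mouse 2 and the line is the mean of the 2 libraries. *Insig1* lay at 46.6 and 34.2 in lung against 13.98 and 16.3 in MLN, while the lung and MLN points of *Fdft1* overlap.

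Markers of other states of Th2 cells also differed between the organs. The 9 effector markers summed to 1752 and 3964 normalized CPM in the lung libraries and to 229 and 231 in the MLN libraries (9 of 9 higher in lung), and the 8 activation markers to 1216 and 1614 against 257 and 299.5 (5 higher, 1 lower). The 12 cycling markers summed to 732 and 919 in lung and to 492 and 597 in MLN, with 4 of 12 higher and none lower. Interferon-responding markers summed to 222 and 323 in lung and to 506 and 1025 in MLN (7 of 7 lower), follicular helper markers to 142.5 and 355 against 476 and 518 (4 of 5 lower), and regulatory markers to 982 and 1233 against 268 and 319 (3 higher, 1 lower). The part of these markers in the differences of the 8 genes was examined only by leaving out cells with cycling or activation markers or of the myeloid-like cluster, and for the other states was not tested. The 7 myeloid markers summed to 44.2 and 61.4 in lung and to 65.95 and 134 in MLN, with 5 of the 6 tested lower in lung, and *Csf1r* was at 0 to 1.498 CPM in the 4 libraries. The 5 B cell markers summed to 104 and 126 in lung and to 230 and 251 in MLN, with both tested ones lower in lung.

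Cells were then restricted by these markers. Here and below, cells were classed by markers after thinning to 1500 UMIs, unless full counts are named. Cells with no marker could thus hold marker UMIs in their full counts. Those under 1500 UMIs were left out. Among cells with no cycling marker the same 5 genes passed, where 17.1% of 10211 genes were higher and 13.5% lower in lung, and the differences of *Insig1* (log2 fold change 1.74), *Idi1* (1.31), *Sqle* (1.07), *Cyp51* (0.87) and *Srebf2* (0.55) were all at least as large as in all cells. In these cells *Insig1* was at 47.7 and 37.75 normalized CPM in lung and at 13.05 and 13.3 in MLN, and *Idi1* at 24.2 and 25.3 against 10.6 and 8.68. Among cells with neither a cycling nor an activation marker, *Insig1* (1.42, adjusted p = 0.00172) and *Sqle* (0.83, adjusted p = 0.0461) passed, with 11.6% of 9221 genes higher, whereas *Idi1* had a log2 fold change of 0.87 and an adjusted p of 0.0671. Between the cycling cells of the organs, which were 21 to 71 per library, none of the 8 genes passed (edgeR), with 6.09% of 6137 genes higher and 1.96% lower, and *Insig1* was at 0.41 (adjusted p = 0.631). Leaving out the cluster of myeloid-like cells kept 5 genes past the test.

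The pathway beyond the 8 genes was described by 9 lists with 57 genes, of which 50 could be tested. Of these, 17 were higher and 8 lower in lung, or 12 and 8 of 42 without the 8 genes. The median log2 fold change was 0.36 over the 50 genes and 0.31 over the 42. Of the 25 genes called, the number fell to 15 without MLN 1, to 14 without MLN 2 and to 14 with DESeq2. Of the 21 synthesis enzymes, 8 were higher and 4 lower. By step, 3 were higher and 1 lower of the 7 genes of the mevalonate steps, and 4 and 2 of the 9 genes from lanosterol to cholesterol. Of the 8 tested genes of uptake and transport 4 were higher and 1 lower. Sterol sensing genes had 2 higher and 1 lower of 6, efflux and esterification genes 2 and 1 of 5, and fatty acid genes 1 and 1 of 8. Outside the 8 genes, the genes most raised in lung were *Hsd17b7*, an enzyme of the last steps (1.56 ± 0.28, adjusted p = 0.00263), *Soat1*, which esterifies cholesterol for storage (0.98 ± 0.12, adjusted p = 0.000297), and *Stard4*, a cytosolic sterol carrier (0.96 ± 0.14, adjusted p = 0.000945). Lower in lung were *Tm7sf2*, another enzyme of the last steps (-1.20 ± 0.24, adjusted p = 0.00537), *Lipa*, the lysosomal lipase that frees cholesterol from its esters (-1.07 ± 0.13, adjusted p = 0.000335), and *Scd2*, a fatty acid desaturase (-0.89 ± 0.16, adjusted p = 0.00267). Enzymes of synthesis therefore stood on both sides. Library totals in place of TMM moved the log2 fold changes by -0.13. The same number of the 8 genes passed then, while 1309 of 3358 called genes were higher in lung in place of 1803 of 3285.

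**Figure D2:**
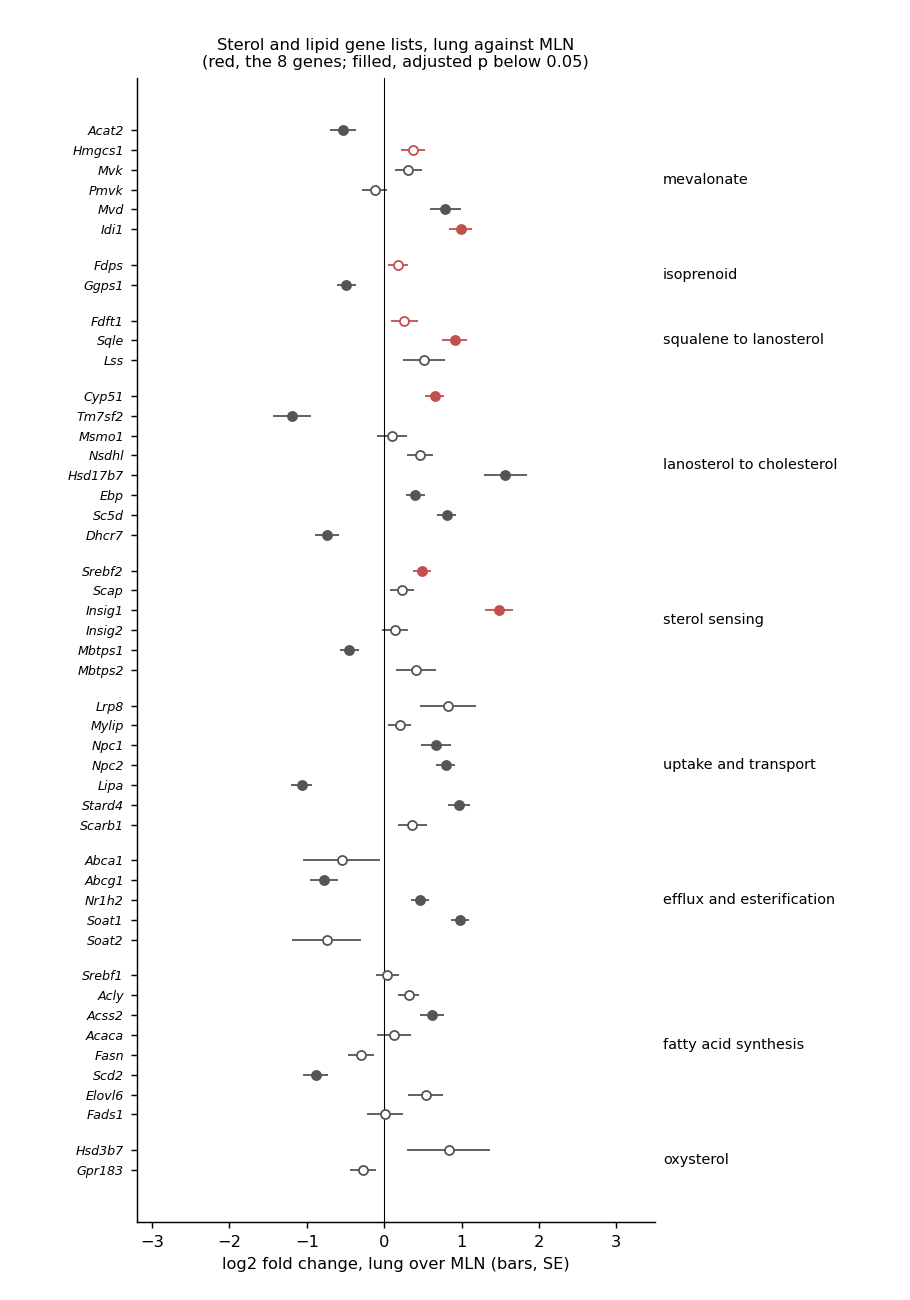
log2 fold change of lung over MLN (x axis) with its SE for genes of the 9 pathway lists. Red points are the 8 genes and filled points have an adjusted p below 0.05. *Insig1* (1.48) and *Hsd17b7* (1.56) lie farthest to the right, and *Tm7sf2* (-1.20) and *Lipa* (-1.07) farthest to the left.

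In the second run the node that drains the lung was compared with the node that drains the gut, within each gate. None of the 8 genes differed between medLN and MLN of IL-4eGFP+ cells (edgeR), where 1.28% of 11265 genes did. At an unadjusted p below 0.05, 5 of the 8 and 1393 of all genes passed, and DESeq2 called none of the 8. All 8 log2 fold changes were below 0, with a median of -0.25 against 0.00 over all genes, so that the medLN levels were the lower ones. *Hmgcs1* was closest to the threshold, with 25.95 and 23.2 normalized CPM in medLN 1 and 2 and 36.05 and 33.3 in MLN 1 and 2 (log2 fold change -0.49 ± 0.10, adjusted p = 0.0572). With the mouse as a block it passed (-0.50, adjusted p = 0.0417). *Cyp51* was at 31.8 and 28.6 in medLN and at 37.8 and 41.1 in MLN (-0.39 ± 0.09, adjusted p = 0.111). For both genes the nodes did not overlap, but how many of all genes did so was not counted.

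*Idi1* was at 35.6 and 27.8 normalized CPM in medLN and at 41.9 and 38.6 in MLN (-0.34 ± 0.12, adjusted p = 0.274). Among cells with no cycling marker it passed, with 13.9 and 14.9 in medLN and 26.6 and 25.1 in MLN (-0.84, adjusted p = 0.0173). *Fdps* was at 79.0 and 64.9 against 87.7 and 87.1, and *Srebf2* at 55.8 and 48.85 against 59.9 and 61.45. *Insig1*, which differed most between lung and MLN, had 17.3 and 16.0 in medLN and 19.6 and 17.6 in MLN, an interval of the log2 fold change from -0.42 to 0.10. *Sqle* was at 16.8 and 15.2 against 17.6 and 19.9. For *Fdft1* the nodes overlapped, with 39.1 and 33.5 against 36.4 and 38.9. None of the 52 pathway genes tested passed.

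IL-4eGFP- cells gave none of the 8 genes either (edgeR and DESeq2), with 2 of the 8 and 666 genes at an unadjusted p below 0.05, and 0.178% of 10683 genes passed. *Fdps*, with 53.15 and 63.4 normalized CPM in medLN and 67.3 and 73.5 in MLN, had the lowest adjusted p of the 8, at 0.593 (log2 fold change -0.27 ± 0.10). Without medLN 2 it passed (-0.41, adjusted p = 0.0163), whereas it was at -0.15 without medLN 1 (adjusted p = 0.833) and did not pass without MLN 1 (0.0654) or MLN 2 (0.615). *Insig1* overlapped between the nodes, with 16.3 and 17.65 against 18.2 and 17.2. The median log2 fold change of the 8 genes was -0.18. None of 49 pathway genes passed. With the mouse as a block, 65 in place of 19 genes passed, none of them among the 8.

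The gates were compared over all 8 hashtag samples, with the node in the model. These samples came from 2 mice. The main fit held neither the mouse nor the pairing of the gates by hashtag sample. In IL-4eGFP+ cells, *Fdft1* and *Cyp51* were higher than in IL-4eGFP- cells, and none of the 8 genes was lower. Of all 11035 genes, 31.3% were higher and 31.8% lower, so that higher calls were no more frequent among the 8 than over all genes. *Fdft1* was at 36.5, 31.4, 33.8 and 36.4 normalized CPM in the IL-4eGFP+ samples (medLN 1, medLN 2, MLN 1 and MLN 2, an order kept below) and at 24.6, 28.4, 27.5 and 29.3 in the IL-4eGFP- samples (log2 fold change 0.33 ± 0.08, adjusted p = 0.00209). *Cyp51* was at 29.7, 26.75, 35.2 and 38.5 against 25.3, 24.1, 27.3 and 28.6 (0.30 ± 0.07, adjusted p = 0.00352). Every IL-4eGFP+ sample exceeded its IL-4eGFP- counterpart in both genes, and for *Fdft1* the gates did not overlap. It was not counted how many of all genes did so. Without medLN 2, 4 of the 8 genes passed, with *Hmgcs1* (0.31, adjusted p = 0.0241) and *Fdps* (0.21, adjusted p = 0.0235).

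The remaining 6 genes had small differences. *Hmgcs1* was at 24.2, 21.7, 33.5 and 31.1 normalized CPM in IL-4eGFP+ and at 23.3, 22.1, 22.2 and 26.6 in IL-4eGFP- samples (0.22 ± 0.10, adjusted p = 0.0608). *Insig1* was at 16.1, 14.95, 18.2 and 16.5 against 17.5, 18.9, 19.5 and 18.4 (-0.18 ± 0.08, adjusted p = 0.07), with each IL-4eGFP+ sample below its counterpart. *Idi1* was at 33.2, 26.1, 39.0 and 36.15 against 30.1, 34.4, 37.2 and 39.0 (-0.07 ± 0.08, adjusted p = 0.493), and the gates overlapped. The other 3 genes also overlapped, with log2 fold changes of 0.11 for *Fdps*, 0.14 for *Sqle* and 0.05 for *Srebf2*. The median of the 8 genes was 0.13, against -0.02 over all genes.

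The gates differed in how many cells were cycling. Cycling cells, defined as cells with at least 3 of the 12 cycling markers after thinning to 1500 UMIs, were 7.64% to 10.7% of IL-4eGFP+ cells of that depth and 0.91% to 1.42% of IL-4eGFP- cells. The summed cycling markers were at 1591 to 2005 against 203 to 386 normalized CPM (12 of 12 higher), and the 6 naive T cell markers at 509 to 652 against 2199 to 2544 (6 of 6 lower). Follicular helper markers were at 274 to 378 against 39.8 to 46.6 (5 of 5 higher) and effector markers at 369 to 607 against 111 to 138 (7 of 9 higher, 1 lower). Migrating markers were lower in 6 of 6 and interferon-responding markers in 5 of 7. Apart from the restriction by cycling and activation markers below, the part of these states in the gate values was not tested. In cells with no cycling marker, 3 of the 8 genes were lower in IL-4eGFP+ cells and none was higher, where 26.3% of 10516 genes were lower and 28.6% higher. *Idi1* was at 12.98, 13.9, 24.9 and 23.5 in IL-4eGFP+ and at 26.5, 33.6, 35.1 and 36.3 in IL-4eGFP- samples (log2 fold change -0.81, adjusted p = 3.26e-05), with no overlap. *Fdps* was at 45.1, 44.5, 64.0 and 55.9 against 52.2, 68.7, 69.9 and 75.45 (-0.35, adjusted p = 0.00218). *Sqle* was at 10.2, 11.3, 12.4 and 11.75 against 11.4, 15.1, 14.4 and 16.9 (-0.34, adjusted p = 0.0278). Each IL-4eGFP+ sample lay below its counterpart in these 3 genes, whereas in all cells *Fdps* and *Sqle* had log2 fold changes above 0. Such an order, or lack of overlap, was not counted over all genes. *Fdft1* (0.17, adjusted p = 0.0767) and *Cyp51* (-0.056) did not pass in these cells, and without activation markers as well, *Idi1* (-0.80, adjusted p = 0.000259) and *Fdps* (-0.34, adjusted p = 0.00612) passed, with 24.9% of all genes lower.

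**Figure D3:**
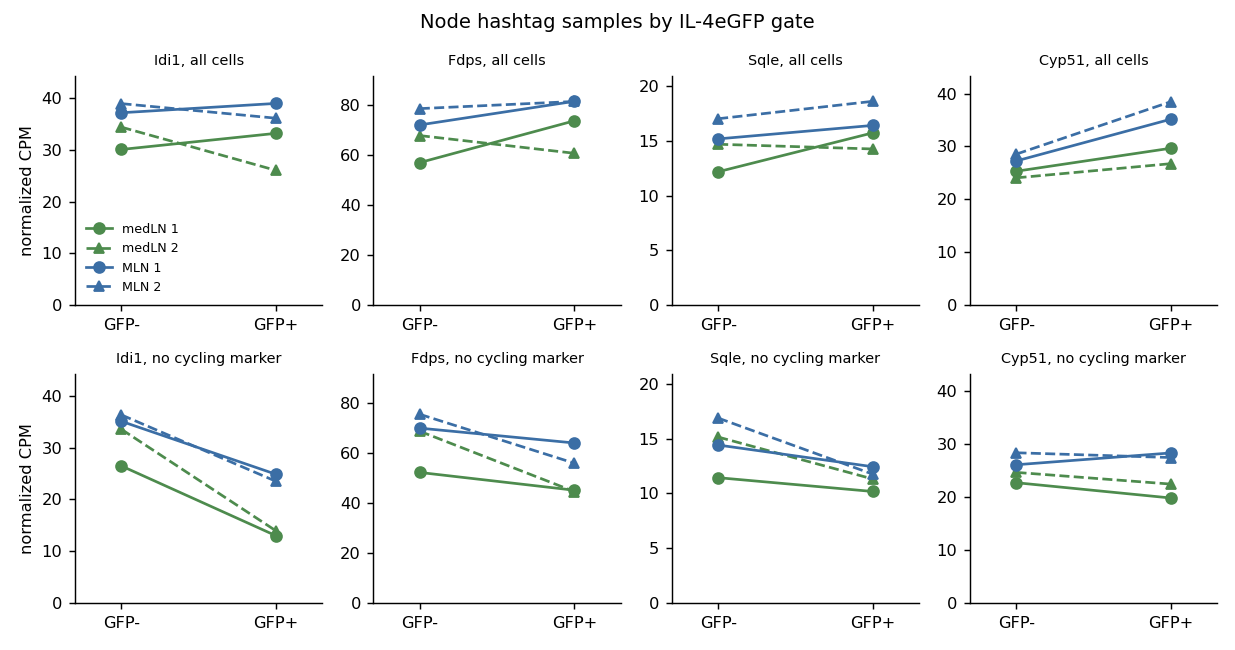
Levels of *Idi1*, *Fdps*, *Sqle* and *Cyp51* (normalized CPM) in the 4 hashtag samples of each gate, joined by sample, in all cells (top) and in cells with no cycling marker (bottom). In the lower row *Idi1* is at 12.98 to 24.9 in IL-4eGFP+ samples and at 26.5 to 36.3 in IL-4eGFP- samples, while in the upper row the gates overlap.

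The number of genes called between the gates depended on the scaling. Library totals in place of TMM moved the log2 fold changes by 0.20. With them, 6 of the 8 genes were higher in IL-4eGFP+ cells, *Insig1* and *Idi1* had log2 fold changes of 0.021 and 0.13 in place of -0.18 and -0.07, and 5174 of 7170 called genes were higher in place of 3451 of 6955. With TMM, 19 of 50 pathway genes were higher and 13 lower in IL-4eGFP+ cells, or 17 and 13 of 42 without the 8 genes. Of the 21 synthesis enzymes, 10 were then higher and 3 lower. The genes most raised in IL-4eGFP+ cells were *Soat2*, an enzyme that esterifies cholesterol (4.23 ± 0.44, adjusted p = 4.15e-06), *Scd2* (1.41 ± 0.10, adjusted p = 1.03e-07) and the phosphomevalonate kinase *Pmvk* (1.17 ± 0.09, adjusted p = 3.99e-07). Lower were, among others, *Npc2*, which moves cholesterol out of lysosomes (-1.68 ± 0.04, adjusted p = 7.06e-11), and *Acss2*, which makes acetyl-CoA from acetate (-1.03 ± 0.09, adjusted p = 1.06e-06). Whether the gate difference itself differed between the nodes was tested by an interaction term. None of the 8 genes passed (edgeR and DESeq2, 1 of 8 and 785 genes at an unadjusted p below 0.05), and 0.181% of genes did. *Hmgcs1* had the lowest adjusted p of the 8 there (-0.39 ± 0.16, adjusted p = 0.653), and with the hashtag sample as a block 84 in place of 20 genes but none of the 8 passed.

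Cycling cells were next compared with cells of the same library that had no cycling marker. In lung and MLN, the enzymes *Fdps*, *Idi1*, *Fdft1*, *Sqle* and *Hmgcs1* were higher in cycling cells, 5 of the 8 genes, and none was lower. Of 8606 genes, 21.4% were higher and 18.5% lower. The cycling cells were 48, 24, 71 and 21 in lung 1, lung 2, MLN 1 and MLN 2 against 884, 333, 2182 and 671 other cells, and 58 to 194 cells per library with 1 or 2 markers were in neither class. Cycling cells carried more RNA, with a median of 13160.5 to 17234 UMIs against 4880 to 6736, and the levels are shares of these totals.

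*Fdps*, at the branch point to prenyl groups and sterols, was at 98.4, 132.6, 124.5 and 146 normalized CPM in the cycling cells of lung 1, lung 2, MLN 1 and MLN 2 and at 49.3, 57.7, 49.5 and 42.5 in the other cells (log2 fold change 1.31 ± 0.15, adjusted p = 5.8e-08). *Idi1* was at 47.2, 29.5, 42.0 and 68.8 against 23.3, 24.95, 10.4 and 8.56 (1.60 ± 0.27, adjusted p = 3.56e-05). *Fdft1* was at 47.2, 58.9, 68.7 and 60.2 against 29.5, 41.1, 29.6 and 21.9 (0.99 ± 0.18, adjusted p = 7.52e-05). For these 3 genes, and for *Sqle*, every cycling sum lay above the other cells of all 4 libraries. The number of all genes with such a gap was not counted. *Sqle* was at 32.4, 44.2, 34.8 and 37.3 against 23.1, 30.8, 13.1 and 11.6 (1.00 ± 0.23, adjusted p = 0.00102), and missed the threshold without the library as a block (0.93, adjusted p = 0.0713). *Hmgcs1* was at 40.4, 76.6, 42.8 and 71.7 against 32.0, 41.6, 27.9 and 24.9 (0.78 ± 0.19, adjusted p = 0.0017). Both were higher in the cycling cells of each library.

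The last enzyme and the regulators did not pass. *Cyp51* was at 47.2, 26.5, 50.9 and 68.8 normalized CPM in cycling and at 44.3, 49.4, 27.5 and 22.9 in other cells (0.52 ± 0.23, adjusted p = 0.0713), so that lung 2 went the other way. *Insig1* was at 48.5, 23.6, 21.0 and 51.6 against 45.9, 37.2, 12.85 and 13.1 (0.48 ± 0.26, adjusted p = 0.146), again with lung 2 opposite. *Srebf2* was at 78.2, 94.3, 75.2 and 51.6 against 100.7, 99.8, 72.9 and 64.95 (-0.16 ± 0.15, adjusted p = 0.408). *Srebf2* thus did not pass in the cells in which 5 of the enzymes it is known to drive were higher.

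**Figure D4:**
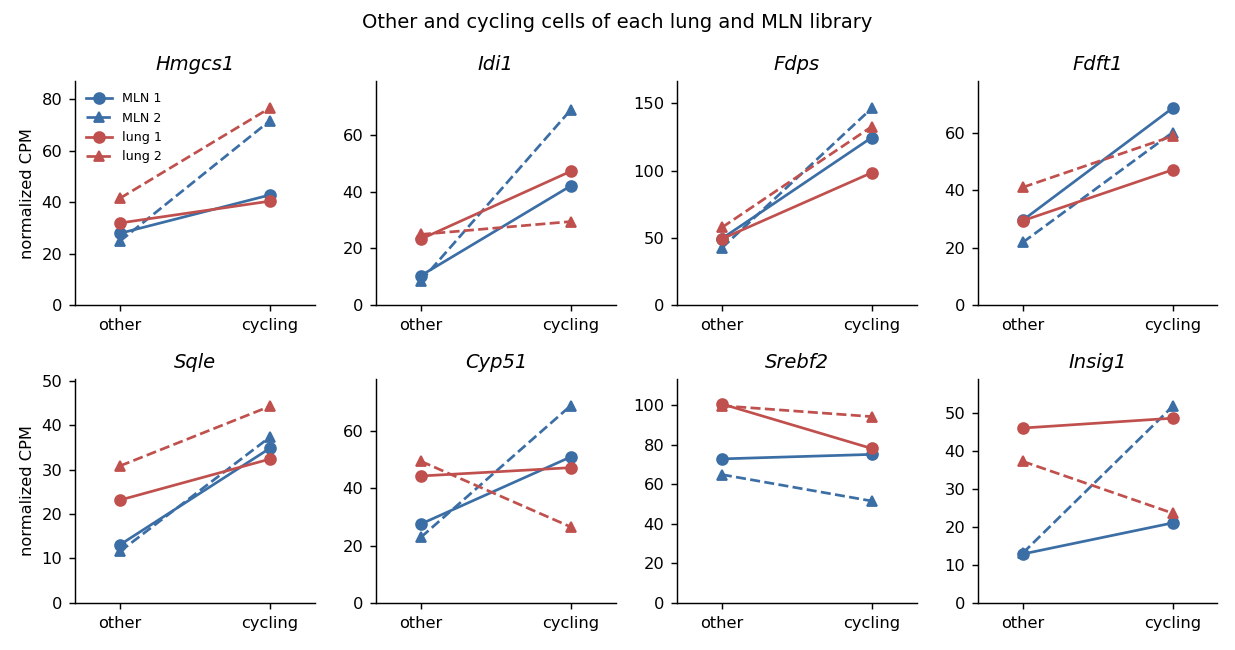
Levels (normalized CPM) in cells with no cycling marker and in cycling cells of the 4 lung and MLN libraries, joined by library, for each of the 8 genes. For *Fdps* the 4 lines run from 42.5 to 57.7 up to 98.4 to 146, whereas for *Cyp51* both MLN lines go up and the lung 2 line goes down from 49.4 to 26.5.

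With at least 5 markers required, 3 genes passed and the log2 fold changes of *Insig1* and *Cyp51* were -0.41 and -0.14. With at least 3 markers, as in the main fit, 17 of 46 pathway genes were higher and 8 lower in cycling cells. Of the 21 synthesis enzymes, 11 were then higher and 1 was lower (6 and 1 of 15 without the 8 genes). Without MLN 1 the number of pathway genes called fell from 25 to 15. Outside the 8 genes, those most raised in cycling cells were the desaturase *Fads1* (1.62 ± 0.30, adjusted p = 0.000111), *Hsd17b7* (1.33 ± 0.36, adjusted p = 0.00497) and *Acaca*, which makes malonyl-CoA for fatty acids (1.05 ± 0.32, adjusted p = 0.011). The sterol exporter *Abcg1* (-1.41 ± 0.37, adjusted p = 0.00343), *Acss2* (-0.98 ± 0.30, adjusted p = 0.0101) and *Npc1*, the lysosomal cholesterol exporter (-0.96 ± 0.37, adjusted p = 0.044), were lower.

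Whether the cycling difference was alike in both organs was tested by an interaction term. *Idi1* and *Cyp51* differed, in that their cycling difference was smaller in lung than in MLN by 1.57 ± 0.40 (log2 scale, adjusted p = 0.0254) and 1.31 ± 0.34 (adjusted p = 0.0332), whereas 0.848% of all genes passed in this direction. In MLN *Idi1* went from 10.4 and 8.56 normalized CPM in other cells to 42.0 and 68.8 in cycling cells, and in lung from 23.3 and 24.95 to 47.2 and 29.5. *Cyp51* was at 27.5 and 22.9 in other and at 50.9 and 68.8 in cycling MLN cells, and at 44.3 and 49.4 against 47.2 and 26.5 in lung. In both genes the lung cells with no cycling marker lay above those of the MLN. All 8 differences were below 0, with a median of -0.83 against 0.02 over all genes, and *Insig1* stood at -1.29 (adjusted p = 0.117). The cycling sums rest on few UMIs, 35, 10, 52 and 24 for *Idi1* and 35, 9, 63 and 24 for *Cyp51*. DESeq2 called neither gene (adjusted p = 0.739 and 0.878), nor did library totals (0.0861 and 0.117), and without any 1 of the 4 libraries, whichever was left out, neither passed (adjusted p 0.105 to 0.442 for *Idi1* and 0.169 to 0.382 for *Cyp51*).

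In IL-4eGFP+ cells of the nodes, with 146 to 207 cycling cells per hashtag sample, 7 of the 8 genes were higher in cycling cells and none was lower, where 35.1% of 10134 genes were higher and 35.4% lower. *Idi1* was at 80.6, 53.7, 88.1 and 62.4 normalized CPM in cycling cells of medLN 1, medLN 2, MLN 1 and MLN 2 and at 13.1, 14.1, 25.1 and 23.9 in other cells (log2 fold change 1.90 ± 0.14, adjusted p = 1.23e-09). *Fdps* was at 146, 101.2, 151.5 and 135 against 45.6, 45.15, 64.7 and 56.8 (1.33 ± 0.08, adjusted p = 8.67e-11). Both classes were far apart in each sample. *Sqle* was at 26.6, 24.7, 29.8 and 33.4 against 10.3, 11.5, 12.6 and 11.9 (1.31 ± 0.13, adjusted p = 6.35e-08). *Cyp51* was at 48.2, 38.6, 57.8 and 52.0 against 20.1, 22.75, 28.7 and 27.9 (0.98 ± 0.10, adjusted p = 1.01e-07). *Cyp51*, which did not pass in lung and MLN, had the groups apart here, but such gaps were not counted over all genes. *Hmgcs1* (0.77 ± 0.10, adjusted p = 1.87e-06) and *Fdft1* (0.64 ± 0.09, adjusted p = 8.9e-06) were higher in the cycling cells of all 4 samples.

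The 2 regulators had the smallest log2 fold changes of the 8 genes here. *Insig1* was at 19.8, 21.5, 22.5 and 19.3 normalized CPM in cycling cells and at 16.9, 10.8, 18.9 and 15.8 in other cells (0.43 ± 0.15, adjusted p = 0.0156). Its adjusted p was 0.1 with DESeq2, 0.107 with library totals, 0.314 with at least 5 markers and 0.127 without medLN 2. *Srebf2* was at 50.4, 43.65, 52.3 and 53.75 against 55.4, 48.7, 57.8 and 61.3 (-0.16 ± 0.08, adjusted p = 0.0935), lower in each sample. With library totals in place of TMM, a change that moved the log2 fold changes by -0.16, *Srebf2* was lower in cycling cells (-0.31, adjusted p = 0.00251), and 2885 of 7385 called genes were higher in place of 3556 of 7140. With TMM, 26 of 48 pathway genes were higher and 13 lower. The 21 synthesis enzymes had 17 higher and 1 lower, 11 and 1 of 15 without the 8 genes. Outside the 8 genes, highest were the lipoprotein receptor *Lrp8* (1.84 ± 0.23, adjusted p = 1.38e-06), *Hsd17b7* (1.41 ± 0.23, adjusted p = 3.62e-05) and *Lss*, which closes the sterol rings (1.39 ± 0.17, adjusted p = 9.4e-07). Lowest were the sterol exporter *Abca1* (-2.27 ± 0.38, adjusted p = 4.64e-05), the ubiquitin ligase gene *Mylip* (-2.07 ± 0.14, adjusted p = 6.62e-10), and *Abcg1* (-1.49 ± 0.16, adjusted p = 2.05e-07). The 2 exporters and *Mylip* are targets of the oxysterol receptors LXR.

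IL-4eGFP- cells had only 20 to 29 cycling cells per sample. Here 3 of the 8 genes were higher in cycling cells and none was lower, with 19.1% of 9773 genes higher and 15.8% lower. *Idi1* was at 34.9, 41.3, 98.1 and 72.8 normalized CPM in cycling cells and at 25.2, 31.9, 33.4 and 34.3 in other cells (0.92 ± 0.22, adjusted p = 0.00177). *Fdps* was at 104.7, 67.2, 102.4 and 102.6 against 49.7, 65.3, 66.5 and 71.3 (0.56 ± 0.17, adjusted p = 0.0134), and *Cyp51* at 52.4, 20.7, 46.9 and 39.7 against 21.6, 23.4, 24.8 and 26.8 (0.67 ± 0.26, adjusted p = 0.0486). *Idi1* and *Fdps* were higher in each sample, whereas for *Cyp51* medLN 2 went the other way. Without medLN 1, *Idi1* alone passed, and *Cyp51* also missed the threshold without MLN 1 (adjusted p = 0.149) and without MLN 2 (0.112). *Insig1* had 3, 4, 0 and 4 UMIs in the cycling sums (-0.99 ± 0.44, adjusted p = 0.0846). Of 48 pathway genes, 6 were higher and 7 lower. *Pmvk* (2.18 ± 0.26, adjusted p = 9.99e-08), *Stard4* (0.93 ± 0.32, adjusted p = 0.0245) and the sterol isomerase *Ebp* (0.61 ± 0.15, adjusted p = 0.00257) were the highest outside the 8 genes, and *Abca1* (-2.96 ± 1.02, adjusted p = 0.0243), *Acss2* (-1.84 ± 0.43, adjusted p = 0.00131) and *Mylip* (-1.56 ± 0.31, adjusted p = 0.000181) the lowest.

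**Figure D5:**
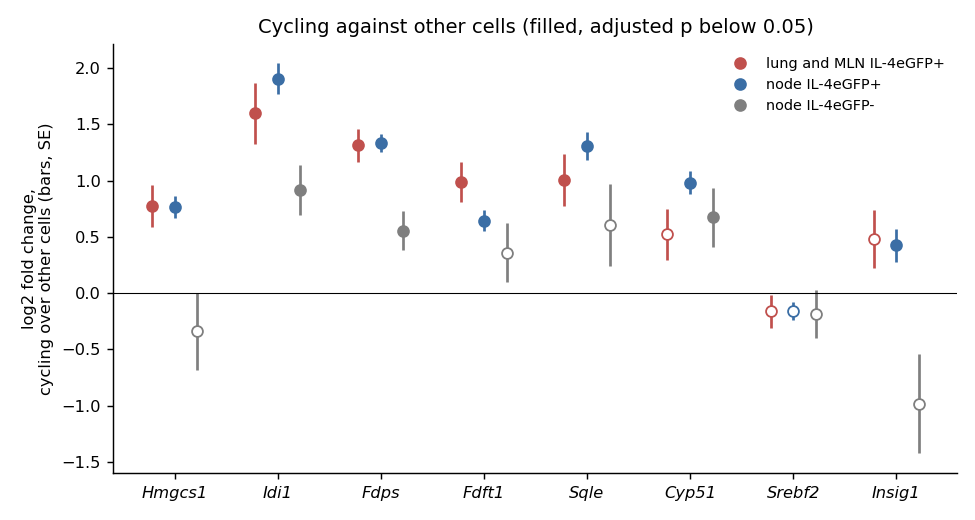
log2 fold change of cycling over other cells with its SE for the 8 genes, in lung and MLN, node IL-4eGFP+ and node IL-4eGFP- cells. Filled points have an adjusted p below 0.05. *Idi1* and *Fdps* are filled in all 3 sets (1.60, 1.90 and 0.92 for *Idi1*), and *Srebf2* in none.

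Cells with at least 2 of 8 activation markers, immediate early and other genes known to be induced through the T cell receptor, were compared with cells with none, among cells with no cycling marker. Such cells were 32.8% and 30.9% of these cells in lung and 4.86% and 6.26% in MLN, organs that also differed in enzymatic digestion, whose part in these shares was not tested. None of the 8 genes passed in lung and MLN, in node IL-4eGFP+ or in node IL-4eGFP- cells, with edgeR or DESeq2, whereas 1.71%, 14.2% and 18.3% of all genes did. At an unadjusted p below 0.05 there were 1, 0 and 1 of the 8 genes and 814, 2385 and 2612 genes in all. In lung and MLN the log2 fold changes ran from -0.31 for *Fdft1* to 0.46 for *Cyp51*, with a lowest adjusted p of 0.356. *Insig1* was at 52.3, 53.0, 17.9 and 0 normalized CPM in activated and at 40.0, 29.4, 12.7 and 15.3 in other cells of lung 1, lung 2, MLN 1 and MLN 2 (interval -0.18 to 0.93), and the MLN 2 class had only 42 cells. In node IL-4eGFP+ cells the range was -0.24 (*Fdps*) to 0.29 (*Idi1*), and in IL-4eGFP- cells -0.42 (*Sqle*) to 0.27 (*Cyp51*), where library totals in place of TMM moved the values by 0.11.

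When classes were made from full counts, *Hmgcs1* was higher in activated cells of both node gates (0.52, adjusted p = 0.034, and 0.59, adjusted p = 0.0254). The pathway values that follow are again from classes made after thinning. In IL-4eGFP+ cells 4 of 46 pathway genes were higher and 3 lower (4 called in all without medLN 1, medLN 2 or MLN 2), with the fatty acid synthase gene *Fasn* at 0.66 ± 0.20 (adjusted p = 0.0245) and *Insig2*, the second INSIG gene, at 0.60 ± 0.19 (adjusted p = 0.0332) against *Abcg1* at -0.94 ± 0.28 (adjusted p = 0.0222), *Scd2* at -0.76 ± 0.18 (adjusted p = 0.00396) and *Lipa* at -0.70 ± 0.18 (adjusted p = 0.00936). In IL-4eGFP- cells 3 of 47 were higher, among them the oxysterol receptor *Gpr183* (1.09 ± 0.11, adjusted p = 1.85e-09) and *Fasn* (0.63 ± 0.19, adjusted p = 0.0194), and *Lipa*, *Npc2* and *Mylip* were lower (-0.99 ± 0.17, -0.66 ± 0.06 and -0.59 ± 0.21). There 10.5% of all 9129 genes were higher and 7.79% lower. None of 41 passed in lung and MLN.

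The cells of each run were also clustered, to place the 8 genes among cell states. Clusters were named only where at least 3 of the chosen markers were among their leading genes. The 8 genes and the other genes of the pathway lists were left out when the clusters were made. The levels below are a description without a test. They are plain CPM of a cluster's cells in 1 library. In lung and MLN, the cycling-like cluster of 311 cells had *Fdps* at 94.7 to 127.9 over the 4 libraries, against 29.3 to 71.4 in all others apart from the innate-like one (7.77). *Idi1* was at 39.1 to 52.9 in the cycling-like cluster, at 21.6 to 25.1 in the effector-like cluster of the lung and at 18.9 to 29.0 in the migrating-like cluster of the lung, while no other cluster exceeded 18.8. The 2 lung clusters outside the cell cycle thus lay between the MLN clusters and the cycling cells.

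In *Insig1* both lung clusters lay above the T cell clusters of the MLN. It was at 36.2 to 41.9 CPM in the effector-like and at 29.7 to 35.0 in the migrating-like cluster of the lung, and at 13.5 to 17.5 in the migrating-like cluster of the MLN, which carried the same name. In the cycling-like cluster it was at 22.9 to 49.7. *Srebf2* was highest in the migrating-like lung cluster (118.3 to 124.3) and lowest in the innate-like cluster (15.5, 1 library). *Cyp51* was at 44.0 to 71.6 in the cycling-like cluster, and *Sqle* had no UMI in the innate-like cluster. In the nodes, the cycling-like cluster had *Idi1* at 48.4 to 87.0 and *Fdps* at 85.3 to 144 CPM. An unnamed node cluster of 880 cells had 2 activation markers among its leading genes. Its means were 44.0 for *Idi1*, 74.7 for *Fdps* and 35.9 for *Hmgcs1*, against 65.3, 119.6 and 35.3 in the cycling-like cluster. Another unnamed node cluster, of 212 cells, had 1 cycling marker among its leading genes. It had the highest node means of *Hmgcs1* (45.7) and *Cyp51* (46.2). *Srebf2* had its highest mean in the effector-like cluster of the nodes (82.2, range 61.8 to 96.8), and the cluster means of *Insig1* ran only from 13.9 to 20.4.

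Over the 24 sums per library and cluster in lung and MLN, *Cyp51* was the gene closest to the sum of the other 7 (Pearson's r = 0.914), whereas over 77 sums in the nodes *Fdps* was the closest (0.792, against 0.677 for *Cyp51*). *Srebf2* was the least like the rest in both runs (0.473 and 0.186). *Insig1* and *Idi1* were nearest to each other in lung and MLN (0.824), while in the nodes *Insig1* was nearest to *Cyp51* (0.424) and *Idi1* to *Fdps* (0.624). Likeness to the summed level was ranked over 5725 genes whose mean reached 20 CPM. Outside the pathway lists, the genes most like the 8 genes were *Slc25a4* (r = 0.895), *Plp2* (0.877), *Pmm1* (0.84), *Mki67* (0.833), which is one of the cycling markers, and *Ripk3* (0.819). Over the node sums their r values were lower, at 0.358, 0.477, 0.535, 0.409 and 0.549. These points share libraries and depth, so that the values only describe likeness.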

How the data were processed

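UMI counts per gene and cell were deposited by the authors, who aligned the reads to mm10 with Cell Ranger (3.0.1 for lung and MLN, where 2 sequencing runs were combined, and 6.1.2 for the aggregated nodes), after demultiplexing with Cell Ranger 2.1.1 in the first run. Productive T cell receptor (TCR) contigs and hashtag counts were deposited too. Cell Ranger counts a read only where it maps to 1 gene, so that reads shared with a near-identical copy are lost.

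Cells with more than 500 UMIs, more than 500 genes, less than 7% mitochondrial UMIs and a novelty score over 0.8 were kept. In lung and MLN a productive TCR alpha and beta chain was required. In the nodes, cells were assigned by HTODemux (quantile 0.99, Seurat 5.3.0), and 1256 and 1280 hashtag doublets and 52 and 70 unlabeled cells were left out. In lung and MLN no doublet caller was run, and barcodes with surplus TCR chains were left out as an alternative. In each table, 259 TCR genes were left out of the tests and of the clustering. Genes named *Tcrg*, for the TCR gamma chain, were not among these and stayed in.

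UMIs were summed per library, hashtag sample or class, and classes needed 20 cells. Tests were two-sided, with edgeR 4.0.16 (filterByExpr, TMM, quasi-likelihood), in R 4.3.3, and p-values were adjusted over every tested gene by the Benjamini-Hochberg method, with a threshold of 0.05. The code was tested on simulated data. DESeq2 1.42.0 was an alternative, as were no filter, other scalings, stricter classes, a block and leaving out each sample. Clusters were found from 2000 variable genes, 15 components and a resolution of 0.8. These TCR genes and all genes of the pathway lists were dropped from the variable genes. This left 1853 in lung and MLN and 1872 in the nodes. Same-numbered samples were taken as from the same mouse, since the study took both organs of each mouse, and are thus paired. Their deviations correlated with r = 0.0393 between lung and MLN, 0.235 between nodes in IL-4eGFP+ and 0.117 in IL-4eGFP- cells. Classes within a sample had the sample as a block. Each group had 2 mice.

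Besides the 8 genes, the text names up to 3 pathway genes per direction with the largest change past the threshold, and the 5 genes of most similar pattern. The 8 genes, the lists and the tests were chosen with earlier results of these data known. No promoter of *Sqle*, *Fdps* or *Fdft1* was analysed here, and some pathway and marker genes are not reported here.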

Additional observations from a re-analysis of the deposited data

Results flagged for a closer look

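The cycling difference of 2 of the 8 genes differed between lung and MLN by an interaction term over the 4 libraries. *Idi1* had a value of -1.57 (lung minus MLN, log2 scale, adjusted p = 0.0254, edgeR) and *Cyp51* a value of -1.31 (adjusted p = 0.0332). In both genes the MLN libraries had lower levels in cells with no cycling marker than the lung libraries. Alternatives moved these values from -2.22 to -1.24 for *Idi1* and from -2.01 to -1.10 for *Cyp51* when 1 library was left out, and neither passed then. Classes from full counts gave -1.79 (adjusted p = 0.0037) and -1.33 (adjusted p = 0.00587). Lung 2 had 10 and 9 UMIs of *Idi1* and *Cyp51* in its 24 cycling cells, with 347370 UMIs in all. MLN 2 was about as thin, with 21 cycling cells and 359392 UMIs, and had 24 UMIs of each of the 2 genes. Dixon's ratio, the widest gap at either end as a share of the range, flagged no sample in the 16 sets of 4 hashtag samples. Each set held both nodes. The largest share was 0.741 (*Hmgcs1*, IL-4eGFP- samples). With 4 values only extreme gaps are flagged, so that this cannot show that no sample stands apart.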

How the results depend on the processing

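Of 131 alternative counts of passing genes among the 8, 112 were classed as the same as the main count, 12 as smaller and 7 as larger. A count was classed as smaller or larger only beyond the margin named below for counts over all genes. The 112 thus include counts that changed by less, such as 4 in place of 5, and are not all unchanged. Between lung and MLN, 0 genes passed in cycling cells only, where *Idi1*, *Fdps*, *Fdft1* and *Cyp51* had log2 fold changes of -0.32, -0.24, -0.35 and -0.52, and 2 passed in cells with neither cycling nor activation markers, where *Fdps* was at -0.11 (added after the data were seen). In medLN against MLN of IL-4eGFP+ cells, 1 passed with the mouse as a replicate block and 1 in cells with no cycling marker, and *Fdft1* ranged from -0.17 to 0.054 without 1 sample. The count in IL-4eGFP- cells was 0 to 1 without 1 sample. Beside *Sqle* in cycling cells, the block changed no call of the 8 genes other than that of *Hmgcs1* between lung and MLN and between the nodes. Cycling cells of lung and MLN gave 4 in place of 5 genes with no replicate block, and 2016 in place of 3434 over all genes.

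Between the gates, 6 passed with library totals (*Insig1* 0.021, *Idi1* 0.13), 1 in medLN only and 0 in cycling cells only (*Insig1* 1.01, *Idi1* 0.091), both totals and cycling cells being added later. In cycling cells only, 2.68% of 8140 genes were higher and 5.32% lower, with 20 to 29 IL-4eGFP- cycling cells per sample. Without cycling markers, *Sqle*, *Fdps* and *Cyp51* were at -0.34, -0.35 and -0.056, and without activation markers too at -0.32, -0.34 and -0.073. Without 1 sample 2 to 4 passed, and *Idi1* ranged from -0.14 to 0.042. In the interaction of gate and node, *Fdft1* was at -0.031 without cycling cells and ranged from -0.16 to 0.27 without 1 sample.

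For cycling cells in lung and MLN, 3 passed with at least 5 markers (*Insig1* -0.41, *Cyp51* -0.14). The interaction with the organ gave 0 with DESeq2, 0 with library totals and 0 to 0 without 1 library, with *Srebf2* from -0.42 to 0.079. In node IL-4eGFP- cells, *Hmgcs1* was at 0.39 with classes from full counts, 1 to 3 genes passed without 1 sample, and at least 5 markers gave no value, since too few cells were left. Cells with activation markers gave 1 gene in each gate with full counts, and *Cyp51* in IL-4eGFP- cells ranged from -0.065 to 0.41. The cause of these shifts was not tested. Where an arm had 1 sample left, it was assumed to vary like the other group.

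Over all genes, counts moved by more than 1.5 times: 3285 (494 to 3913, DESeq2 1834) for lung against MLN, 144 (23 to 191) and 19 (2 to 194) for medLN against MLN in IL-4eGFP+ and IL-4eGFP- cells, 6955 (651 to 7359) for the gates and 20 (6 to 84) for their interaction, 3434 (2016 to 3949) for cycling cells of lung and MLN and 116 (7 to 188) for the interaction with the organ, and 134 (2 to 485), 1301 (633 to 2367) and 1669 (965 to 1763) for activated cells. With library totals, 59 of 91 genes in place of 43 of 116 were higher in the interaction of cycling and organ, and 1298 of 1763 in place of 958 of 1669 in activated node IL-4eGFP- cells. Pathway genes called moved from 32 to 21 between the gates in medLN only, from 25 to 16 (DESeq2), 13 (at least 5 markers) and 12 (no replicate block) in cycling cells of lung and MLN, and from 7 to 2 (DESeq2) and 11 (full counts) in activated node IL-4eGFP+ cells. Depth limits the cycling sums of lung 2, MLN 2 and IL-4eGFP- cells most.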
